A study of Mus musculus with 10 samples.

Results

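TGF-beta ligands, their receptors and the SMAD proteins that carry the signal were followed in fibroblasts with and without Lin37. The 9 genes were Tgfb1, Tgfb2 and Tgfb3, Tgfbr1, Tgfbr2 and Tgfbr3, and Smad2, Smad3 and Smad7, out of 45232 gene entries in the table. They were chosen by the level of Tgfb3, which after scaling was lower in the knockout than in the rescue in every replicate pair; the question was whether the rest of the pathway followed. The KO against rescue values of Tgfb3 are therefore given as a description with no test, whereas the other 8 genes were tested. All 9 passed the minimum level for testing, and so did 16866 genes in all.

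RNA was sequenced from NIH3T3 cells, an immortalized line of mouse fibroblasts, in which CRISPR/Cas9 had mutated Lin37, a subunit of the MuvB core of the cell-cycle gene repressor DREAM. Each of 2 lines came from a single cell: one was mutated at exon 4 (clone 411-27, the exon 4 clone) and one at exon 6 (clone 632-2, the exon 6 clone). Both groups of a clone carry the same Lin37 mutation and differ in a pRTS episome, a plasmid kept outside the chromosomes. After hygromycin selection, doxycycline induction and sorting for GFP, it expressed luciferase in the KO cells and wild-type Lin37 in the rescue cells, and all cultures had been without serum for 60 h. No group had an intact Lin37 gene, so rescue stands for cells with restored Lin37 and not for unmodified NIH3T3 cells. The exon 4 clone gave 2 biological replicates of KO and 2 of rescue. The exon 6 clone gave 3 libraries per group, of which libraries 2 and 3 are technical repeats of replicate 2 and were averaged for testing. Values of the exon 6 clone are listed in the order of replicate 1 and the 2 libraries of replicate 2. In all there were 4 KO and 4 rescue replicates, and each p-value measures the spread between such cultures within 2 clones.

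TGF-beta ligands are secreted in a latent complex with their own propeptide, often tethered to the matrix by latent TGF-beta binding proteins. Once released, a ligand binds the type II receptor Tgfbr2, which phosphorylates the type I receptor Tgfbr1, and this kinase in turn phosphorylates Smad2 and Smad3, which enter the nucleus with Smad4. In fibroblasts the pathway is best known for raising collagen and other matrix genes, and Smad7 is a feedback inhibitor. Only RNA was measured here, so neither latent nor active ligand nor SMAD phosphorylation was observed.

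The libraries differed before any gene was compared. Values are RPKM, reads relative to gene length and sequencing depth, and 1 entry rich in repeats (Gm10800 or CT010467.1) took from 17.1% to 44.6% of the RPKM sum of a library. This share moved with genotype. In the exon 4 clone it was 18.9% and 34.7% in KO and 35.5% and 41% in rescue, and in the libraries of the exon 6 clone 17.1%, 32.6% and 17.6% in KO and 35.5%, 44.6% and 23.8% in rescue, so that each rescue library was above the KO library of the same number. Entries listed at 0 numbered 18739 and 10280 in KO and 12382 and 7920 in rescue of the exon 4 clone, and 18369, 19610 and 20959 in KO and 17348, 12700 and 22034 in rescue of the exon 6 clone, fewer in rescue in all but the last. What part these differences between libraries had in the KO against rescue values was not tested. Each library was therefore divided by its median ratio to the other libraries over 8523 genes, with factors from 0.324 to 2.7, and levels below are in rescaled RPKM unless stated. This scaling brings the typical gene to the same level in each library. It matters for every level below, because in the values as deposited the median of the log2 differences of all 16866 tested genes, with 0.5 RPKM added, was 0.64 between KO and rescue and 0.51 between the exon 6 and the exon 4 clone.

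Lin37 itself was measured first as a check of the labels. KO replicates of the exon 4 clone had 0.285 and 0.284 RPKM and rescue replicates 2.54 and 2.12 RPKM. KO libraries of the exon 6 clone had 0.417, 0.279 and 0.268 RPKM and rescue libraries 4.92, 5.11 and 4.41 RPKM. Every KO library lay below every rescue library in both clones, with a log2 difference of -2.25 ± 0.17 (SE, limma, Benjamini-Hochberg adjusted p = 0.000293), as the labels say. The libraries were also checked for cell type. The 9 fibroblast markers summed to between 272 and 597 RPKM per library, with Col1a1 the most abundant in all 10 and 1 marker listed at 0 in 1 library. The 5 epithelial markers summed to at most 0.537 RPKM, the 4 endothelial markers to at most 0.399 RPKM, the 4 skeletal muscle markers to at most 0.403 RPKM and the 5 leukocyte markers to at most 1.65 RPKM. Of the leukocyte markers, Cd3e was the most abundant in the library with 1.65 RPKM and Cd68 in the other 9. In bulk RNA, fewer cells that express a gene and less RNA per cell cannot be told apart.

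Of the ligands, Tgfb3 was on average the most abundant. Its level in the exon 4 clone was 3.53 and 3.56 RPKM in KO and 5.41 and 4.57 RPKM in rescue. For the exon 6 clone the KO libraries gave 5.34, 4.15 and 4.62 RPKM and the rescue libraries 9.5, 6.91 and 8.71 RPKM. KO and rescue did not overlap within either clone, and the KO libraries of the exon 6 clone lay at about the level of the rescue libraries of the exon 4 clone. The log2 differences of KO minus rescue in the 4 pairs were -0.55 and -0.32 in the exon 4 clone and -0.78 and -0.77 in the exon 6 clone, with a mean of -0.60 ± 0.22 (SD, n = 4 pairs). The genes were chosen by these values. They also rest on the scaling: in the RPKM as deposited, Tgfb3 was 1.72, 1.24 and 1.27 times as high in KO as in rescue in 3 pairs and 0.938 times in replicate 2 of the exon 6 clone. Among 7535 genes of at least 1 RPKM, with nothing added to the values, the median ratio was 2.62, 1.59, 2.23 and 1.74 in the same 4 pairs, and Tgfb3 relative to it was at 0.656, 0.781, 0.571 and 0.54. This median is taken over other genes and on another scale than the 0.64 above. On the log2(RPKM + 0.5) scale of the fit, less that 0.64, the difference of Tgfb3 as deposited was -0.33, smaller than the -0.60 after scaling. Of these genes, the share with a smaller KO to rescue ratio than Tgfb3 was 7.6% and 15.1% in the pairs of the exon 4 clone and 1.79% and 1.23% in those of the exon 6 clone.

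Tgfb1, the ligand most studied in wound repair and fibrosis, did not share this direction. Its level was 4.82 and 2.63 RPKM in KO and 2.89 and 2.13 RPKM in rescue of the exon 4 clone. The exon 6 clone had less on average, with 1.92, 1.68 and 2.3 RPKM in KO and 1.6, 1.38 and 1.56 RPKM in rescue. KO was the higher group in each of the 4 pairs, yet the groups overlapped in the exon 4 clone, where the first KO replicate stood well above the other libraries. The log2 difference of KO minus rescue was 0.36 ± 0.17 (SE, limma, adjusted p = 0.598) and was not called at the threshold of an adjusted p under 0.05. Without KO replicate 1 of the exon 4 clone it was 0.19 (limma, adjusted p = 0.745). In the RPKM as deposited Tgfb1 was called (1.22, limma, adjusted p = 0.0439), a difference that contains the shift of 0.64 over all genes tested.

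Tgfb2 was close to the lower limit of the data. Its level in the exon 4 clone was 0.00486 and 0.0797 RPKM in KO and 0.103 and 0.266 RPKM in rescue. Libraries of the exon 6 clone had 0.0966, 0.0945 and 0.0787 RPKM in KO and 0.225, 0.306 and 0.0866 RPKM in rescue. KO was lower in each pair, but the technical libraries of the second rescue replicate were far apart, and the last of them lay among the KO libraries. The log2 difference was -0.30 ± 0.12 (SE, limma, adjusted p = 0.498), a value that the added 0.5 RPKM shrinks for a gene at this level. It was -0.84 with 0.1 RPKM added and -0.17 with 1 RPKM added and was called in neither (limma, adjusted p = 0.471 and 0.499). In the RPKM as deposited it was -0.70 relative to the median of all genes. The lowest value came from a library with 18739 entries at 0 and the exon 4 rescue value of 0.266 RPKM from the one with the fewest, 7920, and what part this had in the difference was not tested.

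Because both values of a ratio come from the same library, the proportion of Tgfb3 to Tgfb1 does not depend on the scaling. Tgfb3 RPKM divided by Tgfb1 RPKM was 0.731 and 1.35 in KO and 1.87 and 2.14 in rescue of the exon 4 clone. It was 2.78, 2.47 and 2.01 in KO and 5.95, 5 and 5.57 in rescue of the exon 6 clone. In each clone every KO library had a lower ratio than every rescue library, and within each genotype every exon 6 library had a higher ratio than every exon 4 library. The KO against rescue part of this ratio contains the values that chose Tgfb3 and has no test.

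**Figure D1:**
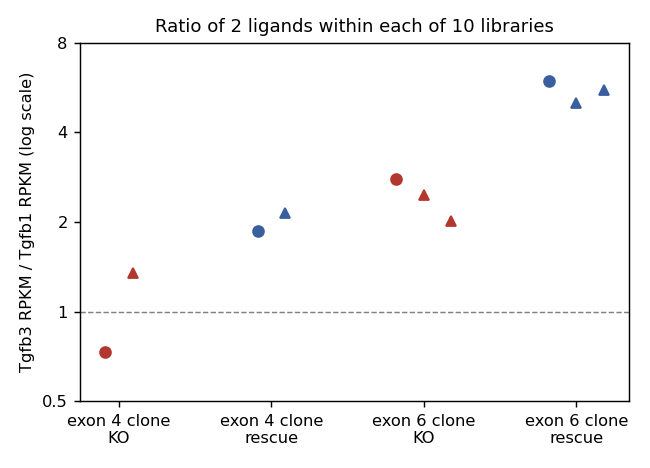
Tgfb3 RPKM divided by Tgfb1 RPKM (log axis) in each of the 10 libraries, by clone and genotype. Circles are replicate 1 and triangles replicate 2, red is KO and blue is rescue, and the dashed line marks a ratio of 1; the values run from 0.731 in an exon 4 KO library to 5.95 in an exon 6 rescue library.

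The receptors gave no counterpart to Tgfb3 in the KO cells. Tgfbr3, also called betaglycan, a co-receptor that presents ligand to the signaling receptors, was at 17.9 and 15.6 RPKM in KO and 14 and 18.6 RPKM in rescue of the exon 4 clone. Levels in the exon 6 clone were 7.81, 8.32 and 9.75 RPKM in KO and 7.18, 6.96 and 9.16 RPKM in rescue. KO and rescue overlapped in both clones, while every library of the exon 4 clone lay above every library of the exon 6 clone. The log2 difference of KO minus rescue was 0.09 ± 0.12 (SE, limma, adjusted p = 0.881).

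The type II receptor Tgfbr2 was at 7.19 and 4.72 RPKM in KO and 5.73 and 4.66 RPKM in rescue of the exon 4 clone. The corresponding levels in the exon 6 clone were 6.48, 6.31 and 7.36 RPKM in KO and 7.38, 7.19 and 8.58 RPKM in rescue. KO was higher in both pairs of the exon 4 clone and lower in both pairs of the exon 6 clone, and over both clones the log2 difference was -0.01 ± 0.15 (SE, limma, adjusted p = 0.989). The type I receptor Tgfbr1, the kinase that acts on Smad2 and Smad3, was an order of magnitude less abundant per length. It was at 0.698 and 0.677 RPKM in KO and 0.595 and 0.629 RPKM in rescue of the exon 4 clone, and at 0.369, 0.326 and 0.347 RPKM in KO and 0.225, 0.527 and 0.451 RPKM in rescue of the exon 6 clone. Its KO values lay above rescue in the exon 4 clone and between the rescue values in the exon 6 clone, with a log2 difference of 0.05 ± 0.11 (SE, limma, adjusted p = 0.931).

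Among the SMADs, Smad3 was at 3.35 and 3.91 RPKM in KO and 3.36 and 3.1 RPKM in rescue of the exon 4 clone. The exon 6 clone had lower levels throughout, 2.29, 2.48 and 2.06 RPKM in KO and 2.55, 2.39 and 2.32 RPKM in rescue. The genotypes overlapped in both clones and the clones did not overlap. For KO minus rescue the log2 difference was 0.03 ± 0.10 (SE, limma, adjusted p = 0.957).

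Smad2, the other receptor-activated SMAD of the pathway, was the steadiest of the 9 genes, at 1.97 and 2.03 RPKM in KO and 1.87 and 1.94 RPKM in rescue of the exon 4 clone. Its values in the exon 6 clone were 1.93, 2.47 and 1.94 RPKM in KO and 1.79, 1.76 and 1.63 RPKM in rescue. KO was slightly higher in all 4 pairs, by a log2 difference of 0.13 ± 0.09 (SE, limma, adjusted p = 0.747). Smad7, itself a target of the pathway, was at 1.59 and 0.782 RPKM in KO and 1.39 and 1.46 RPKM in rescue of the exon 4 clone, and at 0.916, 1.12 and 1.2 RPKM in KO and 1.17, 0.752 and 1.05 RPKM in rescue of the exon 6 clone. In the exon 4 clone the KO replicates lay on either side of both rescue replicates, and the log2 difference was -0.11 ± 0.16 (SE, limma, adjusted p = 0.892).

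**Figure D2:**
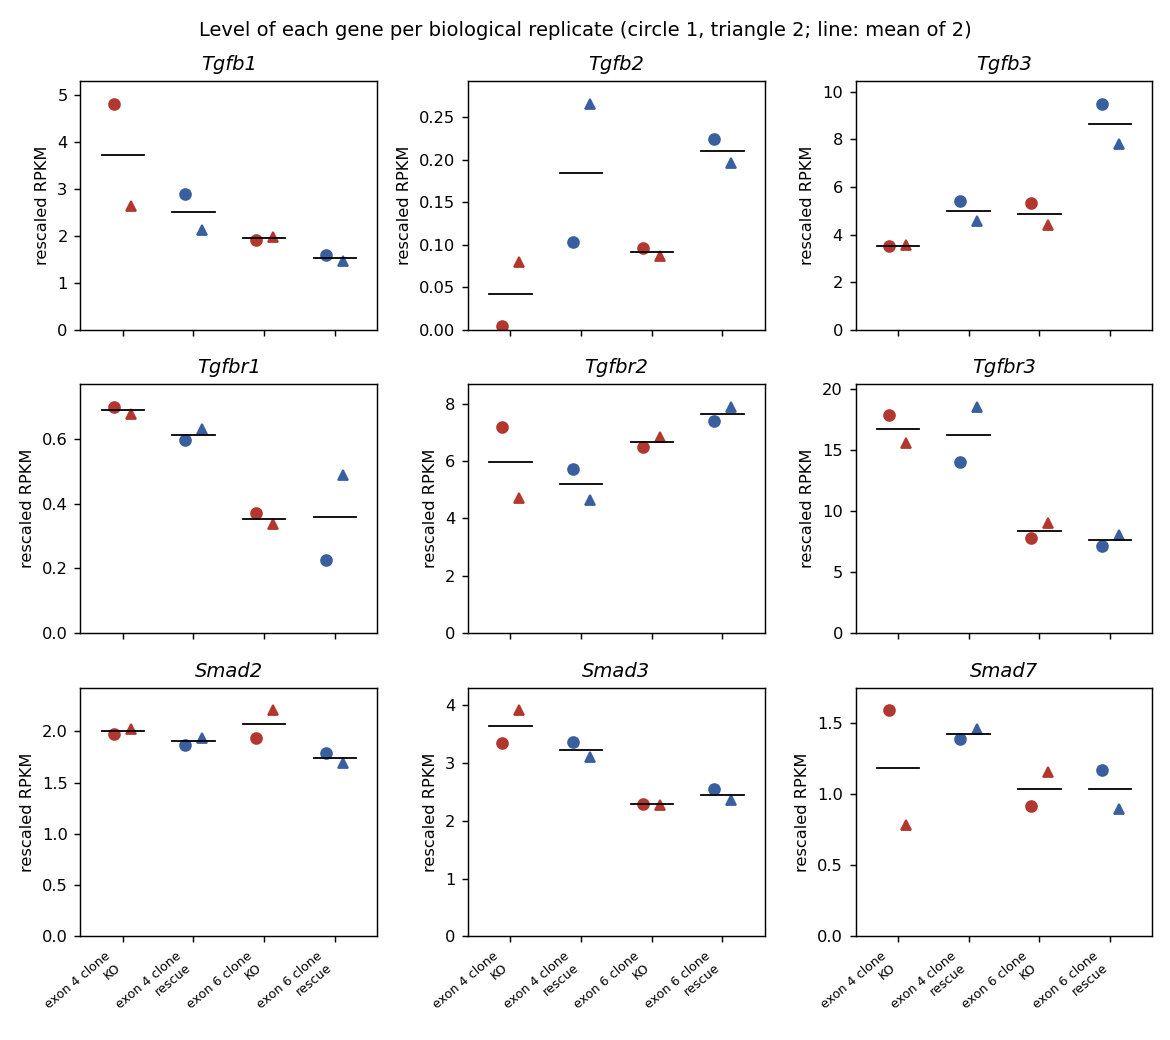
Level of each of the 9 genes in rescaled RPKM (linear axes from 0) in the 8 biological replicates, by clone and genotype. Circles are replicate 1, triangles replicate 2, lines the mean of both, red KO and blue rescue; Tgfb3 is lower in KO in both clones, and Tgfbr3 runs from 14 to 18.6 RPKM in the exon 4 clone and stays below 10 RPKM in the exon 6 clone.

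Taken over both clones, none of the 8 genes tested was called between KO and rescue by limma with Benjamini-Hochberg adjustment, and 1 of the 8, Tgfb2, had an unadjusted p under 0.05 (0.0353), as had 8.79% of all genes tested. Over all genes tested, 1.61% were called higher in KO (271 genes) and 0.083% lower (14 genes, or 27 with the replicate pairs as a block). The smallest adjusted p among the 8 was 0.498. The median log2 difference of the 8 genes was 0.04, against -0.03 over all genes tested. By direction alone, 2 of the 9 genes, Tgfb2 and Tgfb3, were lower in KO in all 4 pairs, as were 13% of all genes tested, but Tgfb3 is there by choice. Tgfb1 and Smad2 were higher in KO in all 4 pairs, as were 8.96% of all genes.

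The clones were also fitted one at a time. In the exon 4 clone limma called 0% of 18751 genes, with 768 at an unadjusted p under 0.05 and none of the 8 TGF-beta genes among these; with the replicate block it called 1 gene lower. In the exon 6 clone it called 1.3% of 15301 genes (189 higher and 10 lower in KO) and none of the 8, whose smallest Benjamini-Hochberg adjusted p was 0.406, with 1 of them at an unadjusted p under 0.05, as were 1811 genes (11.8%). No difference between the clones in the response to Lin37 was called by limma's interaction of clone and genotype for any gene (0% of 16866), with 685 genes, and none of the 8, at an unadjusted p under 0.05.

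The comparison that the choice of genes did not use, the exon 6 clone against the exon 4 clone, gave the larger log2 difference for 6 of the 9 genes. For Tgfb2, Tgfb3 and Smad2 that of KO minus rescue was larger. Clone differences were the larger in general: the median absolute log2 difference of all genes tested was 0.21 between the clones and 0.11 between KO and rescue. By limma's clone coefficient, which also takes genotype into account, 5 of the 9 genes were called, beside 13.6% of all genes tested. That fit treats the 8 replicates as independent, although same-numbered KO and rescue replicates of a clone deviated together. With the correlation of such pairs estimated by limma (0.207 over all genes), an alternative chosen after seeing the data, 3 of the 9 were called, Tgfbr3, Tgfb3 and Smad3, beside 8.39% of all genes tested. Where the mean level reached 1 RPKM, and differences are less damped by the added 0.5 RPKM, 4 of the 7 TGF-beta genes were called, beside 19.9% of all genes at that level. Each clone stems from 1 cell, so these are differences between 2 lines and cannot be told apart from the ordinary spread between single-cell lines of NIH3T3. The epithelial markers also moved with the clone, at a summed level of 0.419 to 0.537 RPKM in libraries of the exon 4 clone and 0.0322 to 0.154 RPKM in those of the exon 6 clone. Cdh1 was the most abundant of the 5 in 9 of the 10 libraries and the only one tested, and it was called (log2 difference -0.59, limma, adjusted p = 0.0185, or 0.0355 with the pair correlation estimated). Without KO replicate 1, KO replicate 2 or rescue replicate 1 of the exon 6 clone it was not called (limma, adjusted p = 0.0725, 0.0586 and 0.0581). From 1 to 4 of the 5 markers were listed at 0 in each library, and what part these markers had in the clone differences was not tested.

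Tgfbr3 differed most between the clones. Its mean was 16.5 ± 2.08 RPKM in the exon 4 clone and 8.02 ± 0.771 RPKM in the exon 6 clone (SD, n = 4 replicates each), 2.06-fold higher in the former, with a log2 difference of -0.99 ± 0.12 (SE, limma, adjusted p = 0.00177). Smad3 was 1.45-fold higher in the exon 4 clone, at 3.43 ± 0.343 against 2.37 ± 0.126 RPKM (log2 difference -0.45 ± 0.10, limma, adjusted p = 0.0186). Tgfb1, at 3.12 ± 1.18 against 1.75 ± 0.25 RPKM, and Tgfbr1, at 0.65 ± 0.0466 against 0.355 ± 0.108 RPKM, were higher there too (log2 differences -0.64 and -0.44, limma, adjusted p = 0.0391 and 0.0393), and these were the 2 not called with the pair correlation estimated (limma, adjusted p = 0.0594 and 0.0751). Tgfb3 alone of the 9 was called in the other direction, at 4.27 ± 0.901 RPKM in the exon 4 clone and 6.76 ± 2.33 RPKM in the exon 6 clone (log2 difference 0.57 ± 0.12, limma, adjusted p = 0.0194). Tgfbr2 (0.35), Tgfb2 (0.10), Smad2 (-0.03) and Smad7 (-0.21) were not called, with limma adjusted p of 0.148, 0.618, 0.837 and 0.398.

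Only the difference in Tgfbr3 was called whichever replicate was left out (limma, adjusted p 0.00367 to 0.0122 over 8 such fits). Tgfb3 and Smad3 were each called in 5 of the 8 fits, Tgfb1 in 3 and Tgfbr1 in 1, with limma adjusted p up to 0.0729, 0.0751, 0.114 and 0.119, and all signs stayed the same. In the RPKM as deposited all 5 had the same sign once the median of 0.51 over all genes was subtracted, with Tgfb3 at 0.96 and Tgfbr3 at -0.53. There limma tests the difference before that subtraction, and only Tgfb3 of the 5 was called. In that fit Tgfbr2, which is not among the 5, was called too (0.75 after the subtraction, limma, adjusted p = 0.0449). Fewer of the 9 genes were called without any 1 replicate of the exon 6 clone, or without rescue replicate 1 of the exon 4 clone, than in the full fit. Fewer of all genes tested were called in those fits too. Tgfbr2 was called without KO replicate 1 of the exon 4 clone (log2 difference 0.49, limma, adjusted p = 0.0195).

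**Figure D3:**
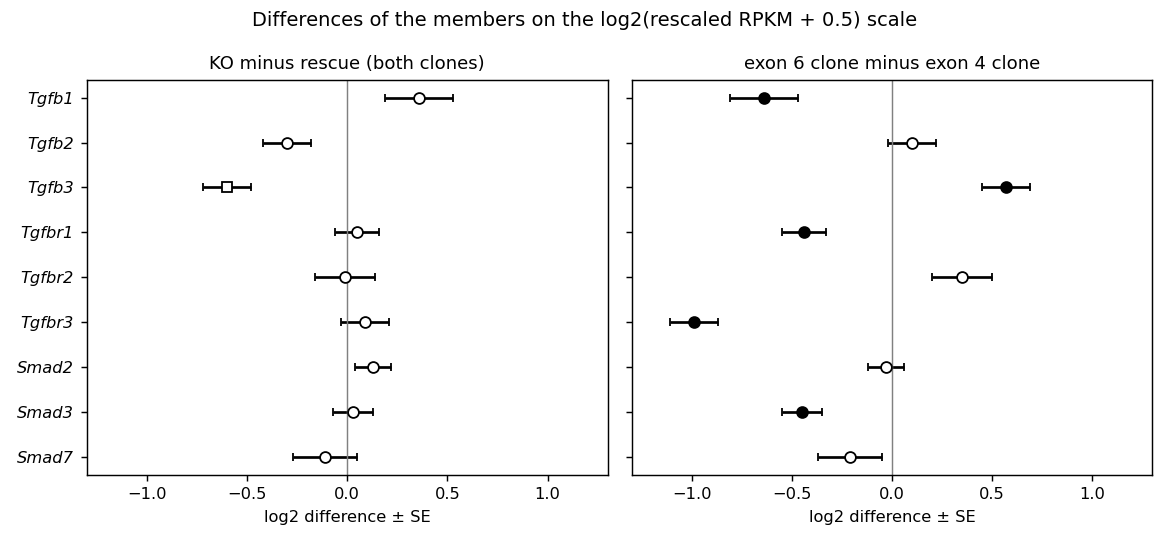
Log2 differences with SE of the 9 genes, KO minus rescue on the left and exon 6 minus exon 4 clone on the right, on the log2(rescaled RPKM + 0.5) scale from 8 replicates. Filled circles have an adjusted p under 0.05, open circles do not, and the square is Tgfb3, not tested on the left; Tgfbr3 on the right is farthest from 0 at -0.99.

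In order of level over the 8 replicates, Tgfbr3 came first (12.3 ± 4.77 RPKM, SD), followed by Tgfbr2 (6.36 ± 1.21), Tgfb3 (5.51 ± 2.11), Smad3 (2.9 ± 0.616), Tgfb1 (2.43 ± 1.08), Smad2 (1.93 ± 0.154), Smad7 (1.17 ± 0.292), Tgfbr1 (0.502 ± 0.175) and Tgfb2 (0.132 ± 0.0877). RPKM is per length, so these levels can be set side by side. The order of Tgfb1 and Smad2 went by clone: Tgfb1 was above Smad2 in all 4 replicates of the exon 4 clone and below it in all 4 of the exon 6 clone, at the closest by 1.92 against 1.93 RPKM. The means of Tgfbr2 and Tgfb3 and of Smad3 and Tgfb1 lay within 1 SD of each other although the first was higher in 7 of 8 replicates. Tgfbr3 was above Tgfbr2, and Tgfb3 above Smad3, in 7 of 8 replicates each. In the exception of the first pair, rescue replicate 1 of the exon 6 clone, Tgfb3 came first with 9.5 RPKM, then Tgfbr2 with 7.38 and Tgfbr3 with 7.18 RPKM. The exception of the second was KO replicate 2 of the exon 4 clone, at 3.56 RPKM for Tgfb3 and 3.91 RPKM for Smad3. Smad2, Smad7, Tgfbr1 and Tgfb2 followed one another in all 8 replicates. Overlapping annotation touches little of these genes: exons of genes on the opposite strand share 257 and 163 of the 3383 exon bases of Tgfb3 and 124 of the 5791 of Tgfb2, and an entry on the same strand shares 297 of the 6545 of Tgfbr3. How the counting treated strand was not given in the sources used here.

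Promoter windows from RefSeq (GRCm38.p6, 250 bases before to 50 after a start) were read for 5 of the 9 genes. These were Tgfb1, Tgfb2, Tgfbr1 (2 windows), Tgfbr2 and Smad3. Windows of the other genes were not read, so whether they hold any of the motifs below is not known. Of the 5 genes, Tgfb1, Tgfbr1 and Smad3 were called by limma's clone coefficient, but only Smad3 with the pair correlation estimated. For these 3 the 250 bases before the start are shown, 5′ to 3′ on the strand of the gene and for Tgfbr1 at the start of the annotated gene. Capitals mark the only motif match in them, a CHR.
Tgfb1, chr7:25686752-25687001, plus strand: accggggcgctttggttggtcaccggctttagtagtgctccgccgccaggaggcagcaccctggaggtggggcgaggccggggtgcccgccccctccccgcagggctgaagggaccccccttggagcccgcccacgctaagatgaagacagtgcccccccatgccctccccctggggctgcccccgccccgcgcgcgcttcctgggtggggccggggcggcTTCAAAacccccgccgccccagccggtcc
Tgfbr1, chr4:47352972-47353221, plus strand: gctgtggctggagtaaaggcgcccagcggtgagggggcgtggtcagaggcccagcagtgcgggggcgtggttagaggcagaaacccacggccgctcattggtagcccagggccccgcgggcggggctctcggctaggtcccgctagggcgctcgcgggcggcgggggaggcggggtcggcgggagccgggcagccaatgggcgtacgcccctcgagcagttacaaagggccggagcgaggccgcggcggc
Smad3, chr9:63757995-63758244, minus strand: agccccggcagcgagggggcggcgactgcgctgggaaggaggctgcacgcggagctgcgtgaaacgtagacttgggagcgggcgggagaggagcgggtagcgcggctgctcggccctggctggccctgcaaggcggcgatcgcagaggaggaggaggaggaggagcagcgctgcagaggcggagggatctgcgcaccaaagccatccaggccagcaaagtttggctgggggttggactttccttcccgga
Letters were searched on both strands in the windows of 300 bases. The CHR, the element through which MuvB complexes bind DNA, was taken as TTTGAA or as the variant TTCGAA, and 19.2% of all 32851 windows hold one of them. It occurred in Tgfb1 as shown, 29 bases before the start, in Tgfbr2 175 bases before the start and in the second window of Tgfbr1. E2F letters (searched as TTCCCGC, as the variant TTTGGCG and as the variant TTTCGCG, together in 6.72% of windows) occurred in none of the 6 windows, and SMAD letters (searched as CAGACA and as the longer GTCTAGAC, together in 21.2%) occurred in Tgfb2 and in the second window of Tgfbr1. These are matches of letters and not sites shown to be bound.

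The wider pathway was read from lists of ligands, receptors, regulators and targets that hold 89 further genes, of which 67 were tested. None was called between KO and rescue by limma, whose smallest Benjamini-Hochberg adjusted p was 0.087. At an unadjusted p under 0.05, 1 was higher and 2 were lower (1.49% and 2.99%, beside 5.06% and 3.72% of all genes tested), and the median log2 difference was -0.04. Inhba, which encodes the subunit of activin A, came closest at -0.55 ± 0.12 (limma, adjusted p = 0.087) and was lower in KO in all 4 pairs; without KO replicate 1 of the exon 4 clone it was called (-0.65, limma, adjusted p = 0.0329). Grem1, a secreted antagonist of BMPs, was higher in all 4 pairs at 0.55 ± 0.14 (limma, adjusted p = 0.144). As a comparison on the same libraries, 9 cell-cycle genes known as DREAM targets were tested (10 listed). Of these, 8 were called higher in KO, beside 1.61% of all genes tested. They were Foxm1, Mcm5, Cdc45, Bub1, Nek2, Ttk, Ccnb2 and Rad54l, at log2 differences from 0.74 to 2.05 (limma, adjusted p 6.97e-05 to 0.0351). Orc1 was higher too, at 0.63, but was not called (limma, adjusted p = 0.0674). The list was chosen with earlier results of these data known, so it is a check of the libraries and no independent result.

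A list of 22 genes that TGF-beta is known to induce or repress in fibroblasts was read in the same way. Of these, 18 were tested and none was called between KO and rescue, with a median log2 difference of -0.00 and a smallest limma adjusted p of 0.617. The most abundant, Fn1 and Col1a1, which encode fibronectin and a chain of type I collagen, were at means of 195 and 191 RPKM and at log2 differences of 0.07 ± 0.23 and 0.02 ± 0.18. Between the clones 10 of the 18 were called, and 7 of the 14 at a mean of 1 RPKM or more, beside 13.6% and 19.9% of all genes. With the pair correlation estimated, 9 of the 18 were called, beside 8.39% of all genes, and Junb was not (limma, adjusted p = 0.0503). Among the 10, Ccn1 (1.53), Col1a1 (1.20), Ccn2 (0.90), Col1a2 (0.87), Tagln (0.80), Timp3 (0.80) and Postn (0.53) were higher in the exon 6 clone, and Junb (-0.93) and Cdkn1a (-0.71) were lower, as log2 differences with limma adjusted p from 0.00205 to 0.036. Cdkn1a, Postn, Col1a2 and Junb were called in 5, 4, 3 and 3 of the 8 fits that left out 1 replicate (limma, adjusted p up to 0.113), and none of the 4 without KO replicate 1 or KO replicate 2 of the exon 6 clone. Col1a1 and Col1a2 are fibroblast markers as well, and 6 of the 9 fibroblast markers were called between the clones, 3 in each direction. Their summed level was 272 to 425 RPKM in libraries of the exon 4 clone and 386 to 597 RPKM in those of the exon 6 clone, and what part this had in the clone difference was not tested.

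Genes of latency and activation divided the clones in both directions. Of 14 listed, 11 were tested and 9 were called (8 of 10 at 1 RPKM or more), beside 13.6% (19.9%) of all genes, while none was called between KO and rescue (smallest limma adjusted p 0.597). With the pair correlation estimated, 8 of the 11 were called between the clones, beside 8.39% of all genes, and Itgav was not (limma, adjusted p = 0.0644). Among the latent TGF-beta binding proteins, Ltbp4 was at 0.284 RPKM in the exon 4 and 3.34 RPKM in the exon 6 clone (log2 difference 2.28, limma, adjusted p = 7.1e-05), Ltbp3 at 12.5 and 25.4 RPKM (0.99, adjusted p = 0.0159) and Ltbp2 at 10 and 5.25 RPKM (-0.87, adjusted p = 0.0182). Fbn1, which encodes fibrillin, the matrix anchor of these proteins, was at 3.36 and 0.397 RPKM (-2.05, limma, adjusted p = 0.000475). Of proteins that release or process the ligand, Thbs1 (0.98) and Furin (0.74) were higher and Mmp2 (-1.18), Itgb8 (-1.11) and Itgav (-0.37) lower in the exon 6 clone (limma, adjusted p 0.00075 to 0.0335). Ltbp2 was called in 6 and Itgav in 1 of the 8 fits with 1 replicate left out (limma, adjusted p up to 0.0687 and 0.117), and neither without KO replicate 1 or 2 of the exon 6 clone. Mmp2 and Thbs1 were the most abundant of the list, at 77.9 and 21.5 RPKM.

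The remaining lists were shorter, and their counts stand beside 13.6% of all genes called between the clones, or 8.39% with the pair correlation estimated. Of 4 tested activin, BMP and GDF ligands, Inhba (1.62), Gdf5 (1.14) and Gdf11 (0.42) were higher in the exon 6 clone (limma, adjusted p 0.000309 to 0.0429). With that correlation 1 of the 4 was called, and Gdf5 and Gdf11 were not (limma, adjusted p = 0.0561 and 0.0744). Gdf11 and Inhba were the most abundant. Of 7 tested antagonists, Fstl3 (0.76) and Chrd (0.42) were higher and Dcn (-2.78) and Grem1 (-0.89) lower (limma, adjusted p 0.00131 to 0.0317). With that correlation 3 of the 7 were called, and Chrd was not (limma, adjusted p = 0.0603). Dcn and Fstl1 were the most abundant, at 21.3 ± 30.8 and 15 ± 2.4 RPKM (SD, n = 8 replicates). The mean of Dcn rests on KO replicate 1 of the exon 4 clone, at 93.8 RPKM; the other 7 averaged 10.9 RPKM, below Fstl1. Dcn, Gdf5, Gdf11 and Chrd were called in 6, 4, 2 and 1 of the 8 fits with 1 replicate left out (limma, adjusted p up to 0.127), and none of the 4 without rescue replicate 1 of the exon 6 clone. Of 6 tested activin and BMP receptors, 1, Acvr1, was lower (-0.52, limma, adjusted p = 0.00748, or 0.0171 with that correlation), a share of 16.7% that is near the 13.6% of all genes, and Bmpr1a and Bmpr2 had the highest levels, 3.5 and 1.53 RPKM.

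No gene was called by KO against rescue or by clone with limma among the 5 other SMADs, the 12 tested co-receptors and negative regulators and the 4 BMP target genes. Smad4 and Smad1 were the most abundant of the other SMADs (3.03 and 1.74 RPKM), with KO minus rescue log2 differences of 0.05 and -0.06, and the farthest from 0 were Smad5 (-0.10) and Smad9 (-0.08). Ski and Ppm1a led the regulators (5.39 and 3.84 RPKM), at -0.00 and -0.02, and the farthest from 0 were Zfyve9 (-0.20) and Smurf2 (-0.18). Id1 and Id3 led the BMP targets (2.21 and 0.659 RPKM), at 0.28 and -0.43, with Id2 at -0.38. In all, 27 of the 67 genes were called between the clones, 17 higher and 10 lower in the exon 6 clone, beside 13.6% of all genes tested; at 1 RPKM or more it was 21 of 47, beside 19.9%. Chosen after seeing the data, the fit with the pair correlation estimated called 22 of the 67, beside 8.39% of all genes. Not all of the 27 stayed called by limma whichever replicate was left out. All 27 kept their sign in these fits, but they were picked as called in the full fit. Neither share was counted over all genes, so this is not particular to the pathway. The 67 genes had a median absolute log2 difference between the clones of 0.42 against 0.21 over all genes tested. These medians are not matched for level: 47 of the 67, but 7550 of all 16866 genes, averaged 1 RPKM or more, and the added 0.5 RPKM damps differences of lower genes.

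**Figure D4:**
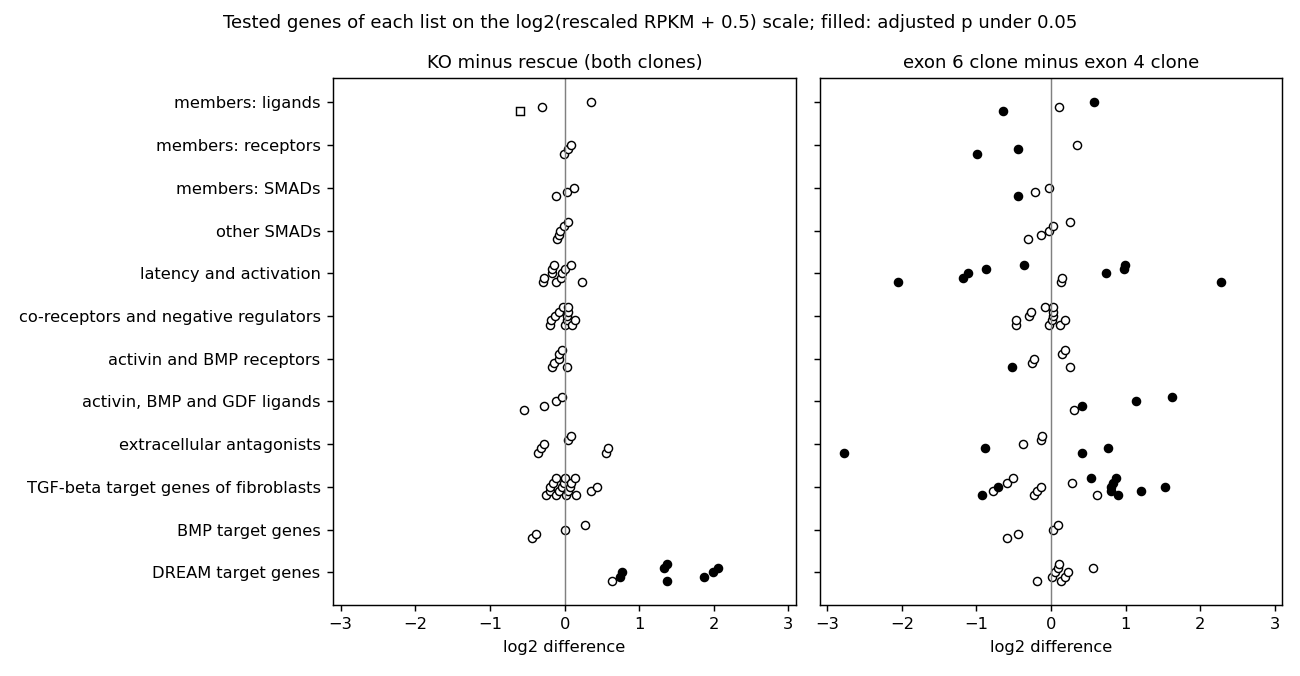
Log2 differences of the tested genes of each list, KO minus rescue on the left and exon 6 minus exon 4 clone on the right, on the log2(rescaled RPKM + 0.5) scale. Filled points have an adjusted p under 0.05 and the square is Tgfb3, not tested on the left; only DREAM targets are filled on the left, and most filled points on the right belong to the latency and target lists.

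The genes whose pattern was most like that of Tgfb3 over the 8 replicates, after the mean of each clone was subtracted, were Maml2, mt-Atp8, Prrx1, Svbp and Slc10a7, with Pearson r of 0.99, 0.98, 0.97, 0.96 and 0.96 on the log2 scale. They were drawn from 7524 genes of at least 1 RPKM, 55 of which had r of at least 0.9, and the replicates share the KO and rescue difference that chose Tgfb3. Their own log2 differences of KO minus rescue were -0.32, -0.50, -0.18, -0.33 and -0.25. Among the 8 TGF-beta genes the closest to Tgfb3 by the same measure was Tgfb2 (r = 0.67) and the most opposed was Smad2 (r = -0.86).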

How the data were processed

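RNA of 10 libraries was analysed. Per the labels and the study's methods, the authors depleted ribosomal RNA, clipped adapters with cutadapt, mapped reads to mm10 with segemehl, counted them per gene with rnacounter against GENCODE and deposited RPKM values. The table holds no counts, and only 12% to 22.1% of low values per library lay within 2% of whole multiples of the commonest step, so depth is unknown and no counting error is given. Symbols were matched for 44585 of 45232 identifiers with GENCODE on GRCm38, and the positions of genes refer to that build.

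Libraries were rescaled by the median of ratios over genes averaging 1 RPKM or more and above 0 throughout, technical repeats were averaged, and genes averaging 0.1 RPKM or more were tested on log2(RPKM + 0.5) with limma 3.58.1 in R 4.3.3 (eBayes with trend, clone as covariate, Benjamini-Hochberg adjustment, adjusted p under 0.05 called). Fold changes on this scale understate changes of low genes. The labels number the replicates of both groups of a clone alike, and same-numbered replicates deviated together (correlation of deviations over 16866 genes 0.432 in the exon 4 and 0.217 in the exon 6 clone), so pairs were also fitted as a block and, for the clone difference, by limma's duplicateCorrelation, added after seeing the data. Of the fits, only KO against rescue over both clones was tested on simulated data. Its changes were of 1 log2 unit or more, in genes averaging 1 RPKM or more, with no clone difference and no correlation of pairs. It does not cover smaller changes, lower genes or the other fits. The genes and lists were chosen with earlier results of these data known. Named were all 9 genes, every other listed gene called (1 is not reported here), the 2 of highest level in each list, the 2 largest changes where none was called, and the 5 genes most like Tgfb3.

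Alternatives were pseudocounts of 0.1 and 1, no minimum or 1 RPKM, RPKM as deposited, quantile normalization, each technical library, no trend, no clone covariate, the replicate block and leaving out each replicate. Values of the study's own comparisons were not used here.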

Additional observations from a re-analysis of the deposited data

How the results depend on the processing

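None of the 8 genes tested between KO and rescue was called, Tgfb3 being untested there. This result held under every alternative run for it except the RPKM as deposited. There Tgfb1 was called over both clones (1 gene of the 8), and Grem1 and Bhlhe40 made 3 pathway genes with it. In the exon 6 clone alone 6 of the 8 were called in those values. They stand beside 10040 genes called higher and 47 lower in the same fit, so they are not read as a result about the 8. Of pathway genes, 0 to 1 were called when single replicates were left out. With the RPKM as deposited, the median over all genes tested shifted by 0.64 on the log2 scale (0.5 RPKM added), 875 genes were called higher, the interaction called 7, and the exon 6 clone alone gave 10040 higher and 47 lower; differences of single genes below are relative to the median of their comparison. Between the clones that scaling called 2484 genes higher and 261 lower in the exon 6 clone, against 1154 and 1132.

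Genes called higher in KO numbered 171 with no minimum level, 93 with a minimum of 1 RPKM and 174 to 265 without single replicates. Genes called lower numbered 6 with no minimum, 8 with quantile normalization, 6 with library 3 alone, 6 without the clone covariate, 27 with the replicate block and 4 to 16 without single replicates. The replicate block, fitted for KO against rescue and for the interaction, called 276 genes higher over both clones, 142 higher in the exon 6 clone and 1 lower in the exon 4 clone; among the TGF-beta and pathway genes it changed no call. For the clone difference the replicate block entered as an estimated correlation, chosen after seeing the data, and called 1415 genes and 3 of the 9. The clone difference numbered 1039 genes with no minimum and 1011 to 3091 without single replicates, against 2286. In the pathway lists with the 9 genes included, where 32 of 76 were called, it numbered 18 with no minimum and 19 to 33 without single replicates, with 19 and 21 without KO replicates 1 and 2 of the exon 6 clone. Of the 9 genes the clone difference called 2 with no minimum, 2 with the RPKM as deposited, 3 with quantile normalization and 3 with library 2 alone. These stand beside 1039, 2745, 2375 and 1809 of all genes tested. Without any 1 replicate of the exon 6 clone it called fewer than the 5 of the full fit, as it did over all genes.

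Differences near 0 changed sign. Between KO and rescue, Tgfbr1 was at -0.04 as deposited, -0.01 with technical libraries separate and between -0.03 and 0.15 without single replicates. Tgfbr2 was at 0.28 as deposited, 0.00 with quantile normalization and between -0.16 and 0.06 without single replicates. Without single replicates Smad3 lay between -0.03 and 0.07 and Smad7 between -0.23 and 0.05. Between the clones, Tgfb2 was at -0.21 and Smad2 at 0.19 as deposited, and Smad2 at 0.01 with library 2 alone. The cause was not tested. Where a group is left with 1 replicate, limma assumes that it varies like the others.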

Other observations

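The technical repeats of the exon 6 clone were no closer to each other than its biological replicates. The median absolute log2 difference over 7550 genes averaging 1 RPKM or more was 0.18 between the technical KO libraries and 0.23 between the technical rescue libraries, against 0.11 and 0.17 between the biological replicates, 1 of which is the mean of those technical libraries. In the exon 4 clone the biological replicates differed by 0.24 in KO and 0.23 in rescue.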
